A study of Mus musculus with 12 samples.

Results

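The genes described here are those of the cytosolic ribosomal proteins, the protein part of the ribosomes that translate nuclear-encoded messenger RNA. They were chosen by name from the gene names of the array: every gene whose name starts with Rpl, Rps or Rplp followed by a digit, and Rpsa, without the S6 kinases (Rps6k) and Rps19bp1. Rpl39l, which the array lists under a clone number, was added through its accession. The rule gave 82 genes of 27962 on the array, with 137 probes. Of these genes, 42 encode large subunit proteins, 31 encode small subunit proteins, 3 encode proteins of the acidic stalk, and 6 are paralogues of a standard member (Rpl39l, Rpl7l1, Rpl22l1, Rpl3l, Rps27l and Rpl36al). All 82 passed the filter on dim probes, which kept 19332 genes in all, and the probe reported for each gene was well above background on all 12 arrays.

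The study used J1 mouse embryonic stem cells (ESC), an established line. A lentivirus brought in a short hairpin RNA (shRNA) against Ino80 (shIno80) or a non-targeting hairpin (shNT), and total RNA was prepared at 2, 4 and 6 days (48, 96 and 144 hours) of each. Ino80 encodes the motor subunit of the INO80 complex, which moves and remodels nucleosomes. The 6 groups (shIno80 and shNT at days 2, 4 and 6) had 2 single-colour Agilent arrays each, given as biological replicates in the design. The shNT controls also carried a lentivirus, and all cells were in M15 medium at infection. The sequence and number of the hairpins and the origin of the paired cultures were not among the labels, and the p-values therefore describe the spread among these arrays, part of which may be technical. The sample descriptions speak of transfection where the design speaks of infection.

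A ribosome has a large and a small subunit, and each subunit takes 1 copy of most of its proteins, so ribosomal protein genes are among the most highly transcribed genes of growing cells. Their messenger RNAs begin with a short run of pyrimidines, the terminal oligopyrimidine (TOP) motif, through which the mTORC1 kinase controls their translation. Some members have a retrotransposed or duplicated paralogue that is used in particular tissues or stages. Rpl39l, for example, is the paralogue of the X-linked gene Rpl39 and is best known from the male germ line.

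Promoter sequence was available for 62 of the 82 genes (RefSeq, GRCm38.p6, from 250 bases before to 50 bases after the annotated start). The windows below are shown because most of these promoters hold a pyrimidine run near the annotated start. The run begins 27 bases after that start in Rpl36a, 36 after it in Rpl39 and 1 after it in Rpl22l1, and at position −2 in Rps27 and −32 in Rpl7l1, so a run shown here need not be a TOP motif. The longest uninterrupted run of C and T in each window is in capitals, and each window is given 5′ to 3′ on the strand of the gene.
Rpl36a (chrX:134585672-134585701, plus strand): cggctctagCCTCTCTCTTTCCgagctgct
Rpl39 (chrX:37085173-37085202, minus strand): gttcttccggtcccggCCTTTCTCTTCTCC
Rps27 (chr3:90213632-90213661, minus strand): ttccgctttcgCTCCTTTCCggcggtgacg
Rpl22l1 (chr3:28805499-28805528, plus strand): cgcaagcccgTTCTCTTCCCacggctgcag
Rpl7l1 (chr17:46782671-46782700, minus strand): cgtcgaggcgggCCTCTCTaccccgcccgg
A run of at least 8 bases of C or T, read on the strand of the gene within 50 bases on either side of the annotated start, was found in 52 of 62 ribosomal protein genes (83.9%) and in 39.3% of the 27025 genes with a promoter. The Rpl7l1 window above, whose run has 7 bases, was among the 10 promoters without one.

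The paralogue that changed most and its partner are shown over the 150 bases before the annotated start, so that the motifs of both can be read there. In capitals are the ETS-type motif CCGGAAG (searched on both strands) and the TATA motif TATAAA (searched on the strand of the gene).
Rpl39l (chr16:10170078-10170227, plus strand): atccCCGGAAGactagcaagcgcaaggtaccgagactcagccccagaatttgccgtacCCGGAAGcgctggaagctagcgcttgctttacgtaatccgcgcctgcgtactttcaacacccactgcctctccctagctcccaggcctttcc
Rpl39 (chrX:37085223-37085372, minus strand): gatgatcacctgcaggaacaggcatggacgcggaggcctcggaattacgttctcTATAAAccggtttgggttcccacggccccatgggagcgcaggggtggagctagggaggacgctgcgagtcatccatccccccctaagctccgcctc
Rpl39 also holds CCGGAAG, on the other strand, downstream of its start in the window printed further up. CCGGAAG occurred in the promoter window of 25 of 62 ribosomal protein genes (40.3%), against 9.93% of all promoters. The YY1-type motif AAGATGGC, searched on both strands, occurred in 6 (9.68%), against 3.19% of all promoters, and TATAAA in 6 (9.68%), against 9.77%. A match describes letters in a window and is not a measured binding site.

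On the arrays, the value of a gene is the log2 of its processed intensity minus the 75th percentile of its array, so a value of 0 is as bright as that percentile. On single arrays, 61.8% to 69.1% of probes passed as well above background. The 75th percentile of the processed intensity was 1643 and 1505 in the shIno80 arrays of day 6, against 1238 and 1265 in the shNT arrays of day 6, and lay between 1162 and 1429 on the other 8 arrays. Of the 82 genes, 75 were so bright that the scanner reported them from its low-gain scan on all 12 arrays, and none was saturated. The deposited records place 6 of the 12 arrays under different samples, with slide positions 2 and 3 exchanged on each of the 3 slides. Values here follow the deposited value table. With its assignment, correlations across genes were 0.9905 to 0.9941 inside groups and at most 0.9869 between them. A slide held the 4 arrays of 1 day, so slide and day cannot be told apart within a hairpin, and neither can hairpin and slide position.

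Ino80 stood at 0.56 and 0.85 in shIno80 cells, against 2.72 and 2.67 in shNT cells at day 2, at −0.29 and 0.12 against 2.26 and 2.16 at day 4, and at −0.23 and −0.01 against 1.89 and 2.05 at day 6. The shIno80 arrays were below the shNT arrays on each day. This check is not independent, because the assignment of arrays was settled with these values known. If samples were instead taken from the scanner file attachments, 0 ribosomal protein genes passed the test at days 4 and 6, against 0.0157% and 0% of all genes.

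As a family, the ribosomal protein genes were lower in shIno80 cells than in shNT cells at day 6, where 66 of 82 passed the test (80.5%, against 29.4% of all genes). After quantile normalization 31 passed (37.8%, against 28.8% of all genes), and the median of the family lay 0.06 below that of all genes on the log2 scale, against 0.40 with the 75th percentile. At day 4 the share that passed was near that of all genes, and at day 2 only 2 passed. The median over the 82 genes on each array was 7.03 and 7.27 in shIno80 cells, against 7.15 and 7.33 in shNT cells at day 2. It was 7.25 and 7.21 in shIno80 cells, against 7.38 and 7.51 in shNT cells at day 4. It was 6.90 and 6.80 in shIno80 cells, against 7.44 and 7.40 in shNT cells at day 6. The groups overlapped at day 2, where shIno80 lay below shNT of the same replicate number, and were apart at days 4 and 6. The median log2 fold change, shIno80 minus shNT, was −0.09 at day 2, −0.22 at day 4 and −0.54 at day 6, where the median of all 19332 genes was 0.02, −0.05 and −0.14. The median of the family stayed below 0 at days 4 and 6 under each of the 6 ways of scaling given further on. In bulk RNA, fewer cells of a type and less RNA per cell cannot be told apart.

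**Figure D1:**
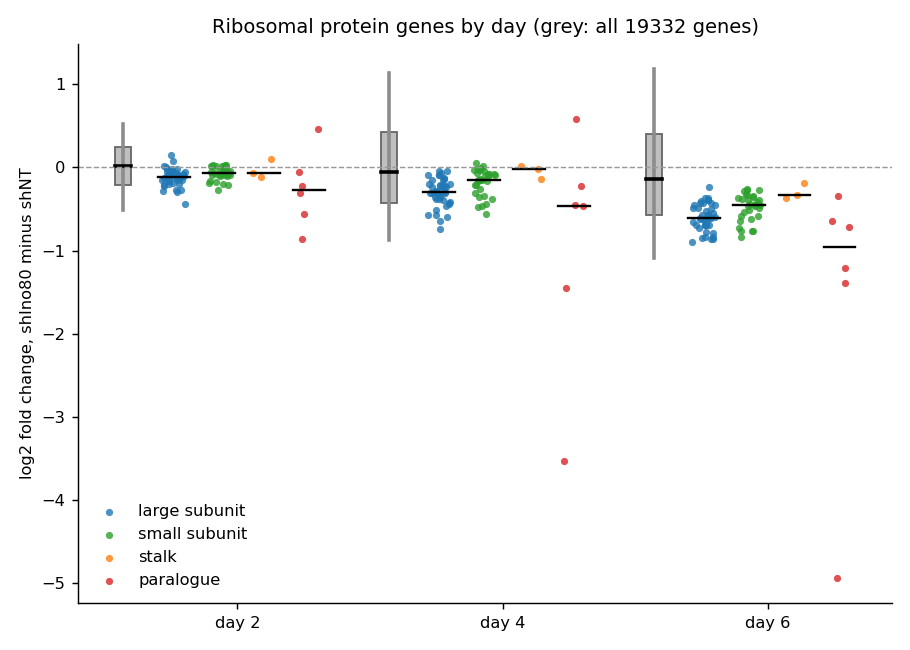
Log2 fold change (shIno80 minus shNT, vertical axis) of each of the 82 ribosomal protein genes at days 2, 4 and 6, by class, 1 point per gene. Black bars are class medians. The grey box spans the quartiles, the grey line the 10th to 90th percentile and its black bar the median of all 19332 genes. At day 6 all 82 points lie below 0 (63 do after quantile normalization), and Rpl39l lies far below the rest at −4.93.

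At day 2, 2 of 82 genes passed the test as lower (limma, Benjamini-Hochberg over 19332 genes, threshold 0.05) and 0 as higher, against 6.21% and 6.22% of all genes. At day 4, 22 of 82 genes (26.8%) were lower and 0 higher, against 21.3% and 20.9% of all genes, so the share of lower calls was near that of all genes. At day 6, 66 of 82 genes (80.5%) were lower and 0 higher, against 29.4% and 21% of all genes. All 22 genes called at day 4 were among the 66 called at day 6, and 16 genes were called on no day. Both shIno80 arrays lay below both shNT arrays for 16 genes at day 2, 63 at day 4 and 82 at day 6, against 21.5%, 40.1% and 45.2% of all genes. The counts depended on single arrays. Without replicate 2 of shIno80 at day 6 the count at day 6 was 37, and without replicate 2 of shNT at day 6 it was 42. Without replicate 2 of either group at day 4 the count at day 4 was 7.

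Markers of cell state moved over the same days. All 8 ESC markers tested were lower in shIno80 cells at days 4 and 6, and 8 of 9 trophectoderm markers were higher on both days. The other one, Tfap2c, was called lower at day 6 (log2 fold change −1.44). Of all genes, 21.3% and 29.4% were lower at days 4 and 6, and 20.9% and 21% were higher. The log2 of the summed intensities of the ESC markers at day 6 was 8.0 to 8.05 in shIno80 cells, against 9.33 to 9.47 in shNT cells. That of the trophectoderm markers was 9.03 to 9.09, against 4.75 to 4.95. Such a sum mostly follows the brightest markers. Of 9 fibroblast markers, which would mark feeder cells, 4 were higher and 3 lower at day 6, against 21% and 29.4% of all genes. The lower ones are 33.3% of the list, near the share of all genes, and the share of higher ones was above it. The largest called changes were rises, of Col1a1 (3.88), Dcn (3.82) and Col1a2 (1.92), and the lowest log2 fold change of the list was −1.07. Dcn was well above background on only 1 of the 2 shNT arrays of day 6. For the 9 markers, the log2 of the summed intensities was 3.86 to 3.91 in shIno80 cells, against 4.42 to 4.52 in shNT cells. Their median log2 fold change at day 6 was 1.12. Of 4 red cell markers, 2 were tested and neither was called. The part of these markers in the shift of the ribosomal protein genes was not tested.

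Of the large subunit genes, 39 of 42 were lower at day 6, with a median log2 fold change of −0.61. Rpl3, which encodes a core protein next to the peptidyl transferase centre, stood at 7.09 and 7.11 in shIno80 cells, against 7.97 and 8.02 in shNT cells at day 6 (log2 fold change −0.90, SE 0.09, limma adjusted p = 0.000117). At day 4 it stood at 7.43 and 7.31 in shIno80 cells, against 7.97 and 7.92 in shNT cells (log2 fold change −0.57, SE 0.09, adjusted p = 0.0016), and at day 2 the values overlapped, with 7.67 and 7.73 in shIno80 cells against 7.73 and 7.85 in shNT cells. The 2 shIno80 arrays were thus below both shNT arrays of the day from day 4 on. Rpl22, an RNA-binding protein that lies at the surface of the subunit, stood at 6.17 and 6.06 in shIno80 cells, against 6.99 and 6.97 in shNT cells at day 6 (log2 fold change −0.86, SE 0.12, adjusted p = 0.000434). Its second probe fell by 1.33 on the log2 scale at that day.

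Rpl10a stood at 5.65 and 5.51 in shIno80 cells, against 6.39 and 6.44 in shNT cells at day 6, and Rpl27a at 4.11 and 3.93, against 4.85 and 4.84. Both were also called at day 4, where Rpl27a had the largest fall of the 42 large subunit genes (−0.74, adjusted p = 0.00735). Its call at day 4 was lost without replicate 2 of shNT at day 4 (adjusted p = 0.0501). Rpl36 and Rpl17 fell by 0.86 and 0.85 on the log2 scale at day 6. Rpl5 and Rpl11, which form a particle with 5S rRNA that can bind the p53 regulator Mdm2, had log2 fold changes of −0.50 and −0.65 at day 6, both called. Rpl27 (−0.42) and Rpl38 (−0.37) were not called at day 6.

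Among the small subunit genes, 21 of 31 were lower at day 6, with a median log2 fold change of −0.45. The difference between the subunits was not tested. Rps9 stood at 5.83 and 5.74 in shIno80 cells, against 6.54 and 6.57 in shNT cells at day 6 (log2 fold change −0.77, SE 0.11, adjusted p = 0.000474). At day 4 it stood at 6.12 and 5.95 in shIno80 cells, against 6.42 and 6.58 in shNT cells (log2 fold change −0.47, adjusted p = 0.00763), so the groups were apart on both days. Rps10, Rps24 and Rps14 had log2 fold changes of −0.76, −0.76 and −0.72 at day 6. Rps6, the substrate of the S6 kinases, had a log2 fold change of −0.38, which was called, and its sign turned after quantile normalization (0.00731) and with normexp (0.07). Rpsa, which is also known as the laminin receptor, stood at 6.41 and 6.41 in shIno80 cells, against 6.80 and 6.79 in shNT cells at day 6 (log2 fold change −0.39, SE 0.09, adjusted p = 0.00934), and its sign turned after quantile normalization (0.07) and with normexp (0.06). The 10 small subunit genes that were not called at day 6 had log2 fold changes between −0.42 (Rps28) and −0.25 (Rps2). Rps2 stood at 8.26 and 8.19 in shIno80 cells, against 8.49 and 8.47 in shNT cells.

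**Figure D2:**
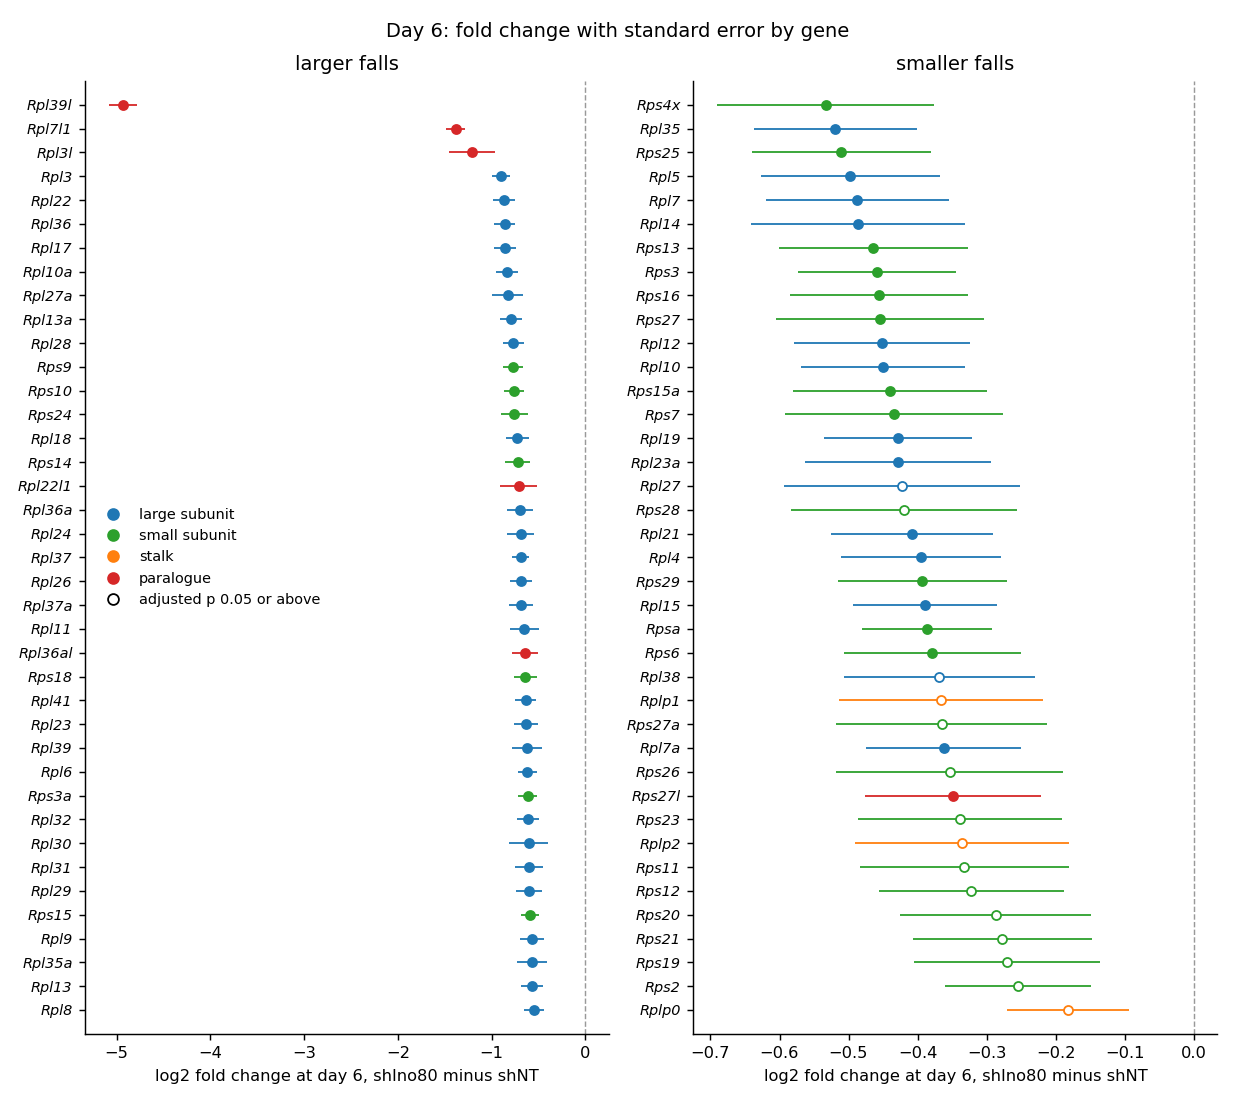
Log2 fold change at day 6 (shIno80 minus shNT, horizontal axis, with its standard error) of 78 of the 82 genes, ordered by size from the largest fall at the top left to Rplp0 at the bottom right. Filled points passed the test. The horizontal scales of the panels differ, since Rpl39l at −4.93 sets that of the left panel.

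None of the 3 stalk genes was called on any day. These encode Rplp0 and the acidic proteins Rplp1 and Rplp2, which recruit elongation factors. Rplp0 stood at 6.18 and 6.28 in shIno80 cells, against 6.44 and 6.39 in shNT cells at day 6 (log2 fold change −0.18, 95% interval −0.38 to 0.02, adjusted p = 0.119). At day 4 its values were 6.23 and 6.19, against 6.27 and 6.19, and at day 2 they were 6.15 and 6.14, against 6.04 and 6.05. By this reported probe, Rplp0 had the smallest difference of the 82 genes at day 6. Its sign there turned under quantile normalization (0.21), normexp with quantile normalization (0.16) and the value table (0.04). A second entry for Rplp0, which the array lists under the older name Arbp, was left out by the name rule. That entry was brighter, with a mean of 8.36 over the 12 arrays against 6.21. It had log2 fold changes of −0.19, 0.04 and −0.37 at days 2, 4 and 6, the last with an adjusted p of 0.0713. Rplp1 and Rplp2 had log2 fold changes of −0.37 (adjusted p = 0.071) and −0.34 (adjusted p = 0.106) at day 6, with every shIno80 array below the shNT arrays of that day.

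All 6 paralogues were lower at day 6, and Rpl39l and Rpl7l1 had the largest falls of the family under each of 5 scalings. Rpl3l came next with the 75th percentile, but not with normexp (−0.38) or the value table (−0.46). Rpl39l stood at 3.34 and 3.28 in shIno80 cells, against 4.21 and 4.13 in shNT cells at day 2. It stood at 1.14 and 1.05 in shIno80 cells, against 4.60 and 4.66 in shNT cells at day 4. It stood at −0.98 and −1.44 in shIno80 cells, against 3.62 and 3.82 in shNT cells at day 6. Its groups were thus apart on all 3 days, and the shIno80 signal came to 55.3%, 8.63% and 3.28% of the shNT signal at days 2, 4 and 6. On the log2 scale its changes on these days were −0.86, −3.53 and −4.93 (SE 0.15 each, limma adjusted p = 0.0105, 4.58e-06 and 9.18e-07). It was the only member called on all 3 days, and its call at day 2 was lost without replicate 2 of shIno80 at day 2 (adjusted p = 0.0553). A second probe of the gene gave log2 fold changes of −1.52 and −4.34 at days 2 and 4. At day 6 that probe was not well above background in shIno80 cells, where it was at least 24.95-fold lower than in shNT cells, with measured means of −7.07 in shIno80 cells and −1.26 in shNT cells. At least N-fold is here the mean of shNT against, on each shIno80 array, the higher of the probe and the lowest signal that was well above background.

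Its partner Rpl39 stood at 6.23 and 6.08 in shIno80 cells, against 6.74 and 6.81 in shNT cells at day 6 (log2 fold change −0.62, SE 0.16, adjusted p = 0.012). At day 4 it stood at 6.75 and 6.66 in shIno80 cells, against 6.83 and 6.98 in shNT cells, and at day 2 its groups overlapped, with 6.28 and 6.65 against 6.41 and 6.74. Rpl39 was not called at day 2 or day 4, with log2 fold changes of −0.11 and −0.20. At day 6, the change of Rpl39l minus the median change of the family was −4.39 on the log2 scale, and that of Rpl39 was −0.08. The difference between the changes of the paralogues was not tested.

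Rpl7l1, a paralogue of Rpl7 that acts in the assembly of the large subunit, stood at 2.55 and 2.47 in shIno80 cells, against 4.03 and 3.89 in shNT cells at day 4. At day 6 it stood at 2.33 and 2.35 in shIno80 cells, against 3.69 and 3.77 in shNT cells. Its log2 fold change was −1.45 at day 4 and −1.39 at day 6 (SE 0.10, adjusted p = 2.31e-05 and 1.88e-05), and its second probe gave −1.32 and −1.42. At day 2 it stood at 3.20 and 3.14 in shIno80 cells, against 3.40 and 3.57 in shNT cells, a difference that was not called (−0.31, adjusted p = 0.0904). Rpl7 itself had log2 fold changes of −0.11, −0.20 and −0.49 at days 2, 4 and 6, of which the last was called (adjusted p = 0.015).

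Rpl3l, which replaces Rpl3 in striated muscle, was higher in shIno80 cells on both earlier days and lower at day 6, of which the last was called. It stood at −2.43 and −3.01 in shIno80 cells, against −2.94 and −3.43 in shNT cells at day 2, and at −3.03 and −3.48, against −3.71 and −3.97, at day 4. At day 6 it stood at −5.08 and −4.89 in shIno80 cells, against −3.76 and −3.80 in shNT cells. The shIno80 arrays were thus above both shNT arrays at day 4, where it was the only member of which this held, and below them at day 6. The fall at day 6 was called (log2 fold change −1.20, SE 0.25, adjusted p = 0.00377), and with the value table it was not (−0.46, adjusted p = 0.0552). The difference between shIno80 and shNT itself differed between days 4 and 6 (−1.79, adjusted p = 0.0336), but the size of this change depended on the processing. Median scaling gave 0.44 at day 4 and −1.30 at day 6, and quantile normalization gave 0.44 and −1.21. The gap between the days was narrower under normexp (0.20, then −0.38) and in the value table (0.39, then −0.46).

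Of the other paralogues, Rps27l, which is known as a target gene of p53, was called at day 2. It stood at 5.95 and 6.12 in shIno80 cells, against 6.45 and 6.74 in shNT cells at day 2 (log2 fold change −0.56, SE 0.13, adjusted p = 0.026). That call was lost without replicate 1 or replicate 2 of shIno80 at day 2 (adjusted p = 0.122 and 0.0595) and without replicate 2 of shNT at day 2 (adjusted p = 0.0876). At day 4 it had a log2 fold change of −0.23 (adjusted p = 0.19), and at day 6 it was just inside the threshold (−0.35, adjusted p = 0.0496), with a sign that turned after quantile normalization (0.06) and with normexp (0.08). Its partner Rps27 had log2 fold changes of 0.01, −0.03 and −0.45 at days 2, 4 and 6, of which the last was called, and its sign at day 6 turned after quantile normalization (0.00772). Rpl22l1, which is known to rise when its partner Rpl22 is lost, was lower at day 6 (5.05 and 4.84 in shIno80 cells, against 5.67 and 5.65 in shNT cells, adjusted p = 0.0157), as was Rpl22. A second, dim Rpl22l1 probe went the other way and was called higher at day 4 (0.65, adjusted p = 0.0373). Rpl36al and its partner Rpl36a had log2 fold changes of −0.64 and −0.69 at day 6, both called.

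**Figure D3:**
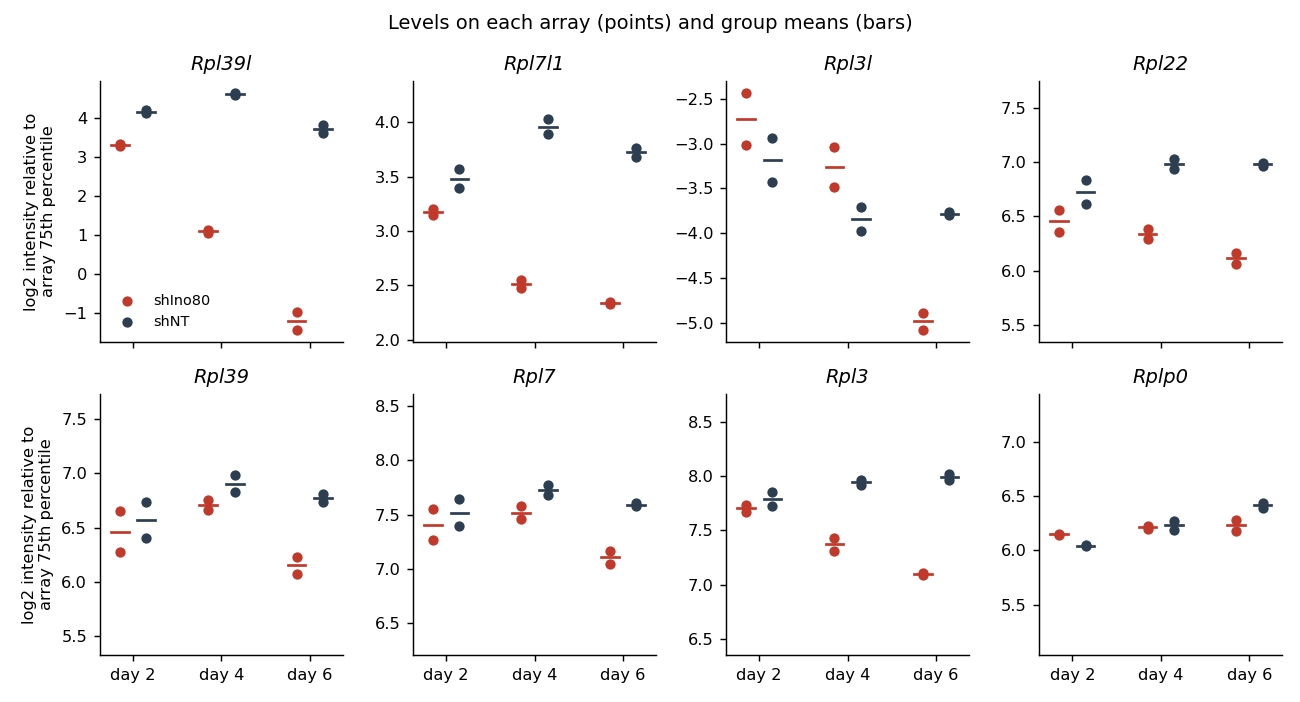
Level of 8 genes (log2 intensity relative to the 75th percentile of the array, vertical axis) on each of the 12 arrays at days 2, 4 and 6, with shIno80 in red left of shNT in dark blue. Points are arrays and bars group means, and each panel has its own scale. Rpl39l and Rpl7l1 are apart from day 4 on by far more than the spread of the arrays, Rpl39 and Rpl7 by less, and Rplp0 overlaps at day 4.

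Of the 82 genes, 40 had more than 1 kept probe. Of their 52 further probes, those of Rpl22l1, Rpl35a and Rps25 had a log2 fold change above 0 at day 6 (0.38, 0.24 and 0.19). Another disagreement was Rps20, which stood among the genes not called at day 6 by its reported probe (log2 fold change −0.29, adjusted p = 0.12). A second probe that carries the name Rps20, designed on another transcript record, had log2 fold changes of −2.40, −3.55 and −2.53 at days 2, 4 and 6 (SE 0.31, adjusted p = 0.0032, 6.12e-05 and 0.000252). It stood at −3.09 and −2.41 in shIno80 cells, against −0.79 and 0.10 in shNT cells at day 2. The second probe of Rps25 was called higher at day 4 (0.31, adjusted p = 0.0331), where its reported probe had −0.15. For Rps19, Rps2 and Rps6, 1 further probe each did not pass the filter on dim probes. Another probe of Rps19 and of Rps2 was kept. Their log2 fold changes at day 6 were −0.03 for Rps19, not called, and −0.32 for Rps2, called (limma adjusted p = 0.0473). Ribosomal protein genes have many processed pseudogenes, and probes of near-identical copies cannot be told apart.

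Whether the log2 fold change, shIno80 minus shNT, itself differed between days was tested directly. Such a change can come from either hairpin, and no test between days was made within a hairpin. From day 2 to day 4, the log2 fold change became lower for 3 of 82 genes (Rpl39l, Rpl7l1 and Rpl3), against 7.09% of all genes. From day 4 to day 6 it did for 2 of 82 (Rpl3l and Rpl39l), against 2.24% of all genes. From day 2 to day 6 it did for 19 of 82, against 15.7% of all genes. The medians of these changes in log2 fold change over the 82 genes were −0.14, −0.30 and −0.44, against −0.06, −0.08 and −0.15 over all genes. For day 6 against day 2, the count was 9 without replicate 2 of shIno80 at day 6 or of shNT at day 6, and 31 without replicate 2 of shNT at day 2.

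How the arrays were scaled changed the size of the shift and the number of calls. Compared with the 75th percentile, scaling by the median of the array moved the median of all genes at day 6 to −0.23 and that of the ribosomal protein genes to −0.63, and 71 genes were called lower (31.9% of all genes). Without any scaling between arrays, an alternative chosen after seeing the data, the medians were 0.19 and −0.21, and 18 genes were called lower (14% of all genes). The family lay 0.40 below all genes on the log2 scale in these 3 cases, which differ by 1 constant per array, so that this distance is the same by construction. In the deposited value table, which has no background subtraction, the family lay 0.36 below all genes, and 38 genes were called lower (17.9% of all genes).

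Quantile normalization gives every array the same distribution of values, so a shift that the brightest genes share would not remain, whatever its source. Whether this accounts for the smaller distance of the family was not tested. After quantile normalization, the median of the family at day 6 was −0.17 against −0.11 for all genes, and 31 genes were called lower (28.8% of all genes). With normexp background correction before it, the median was −0.15 against −0.05, and 37 genes were called lower (28% of all genes). At day 4, the counts of lower genes were 34 with median scaling (25.6% of all genes), 16 with quantile normalization (22.9%), 18 with normexp and quantile normalization (22.4%), 19 with the value table (18.8%) and 13 without scaling (17.2%).

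Calls were compared over the 5 planned settings. Under the 75th percentile, the median, both quantile settings and the value table, 28 genes were called lower at day 6 and 14 at day 4. The share of all genes called lower under all 5 settings was not counted. It cannot exceed that of the value table alone, which was 18.8% at day 4 and 17.9% at day 6. The 28 genes were Rpl39l, Rpl7l1, Rpl22l1 and Rpl36al among the paralogues, 17 large subunit genes that included Rpl3, Rpl22, Rpl27a, Rpl36 and Rpl17, and 7 small subunit genes that included Rps9, Rps14 and Rps10. No stalk gene was among them. The log2 fold change of Rpl39l at day 6 ranged from −5.02 to −4.50 over these 5 settings, and that of Rpl3 from −0.99 to −0.51. Of the 82 genes, 60 lay below 0 at day 6 under all 5 settings. Without scaling, which is not among the 5, 18 genes were called at day 6 and 13 at day 4, so not all of the 28 were called there.

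**Figure D4:**
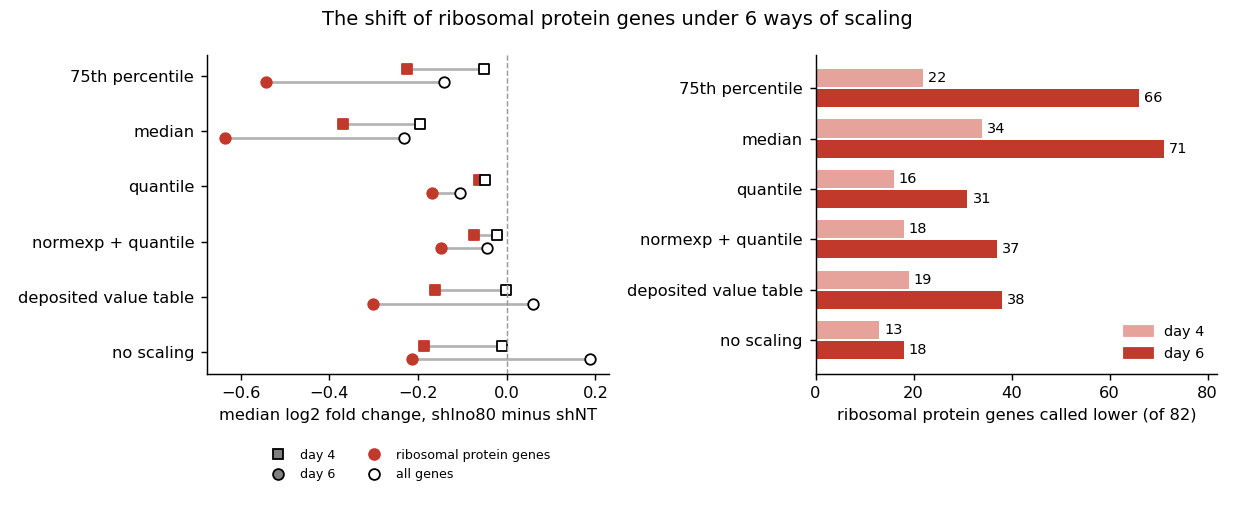
Left, median log2 fold change (shIno80 minus shNT, horizontal axis) of the 82 ribosomal protein genes (red) and of all genes (open) at day 4 (squares) and day 6 (circles) under 6 ways of scaling. Right, number of ribosomal protein genes called lower under each. The red median stays left of the open one throughout, and the count at day 6 ranges from 18 to 71.

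Other genes of the ribosome and of its production were read from lists chosen for this comparison. Of the ribosomal components outside the name rule, Fau and Gnb2l1 were not called on any day and had log2 fold changes of −0.34 and −0.37 at day 6. Rpl34, which the array lists under a clone number, had −0.44 (adjusted p = 0.0143) at day 6, and Rps4l, likewise under a clone number, had −0.63 (adjusted p = 0.00668). Of 15 genes of RNA polymerase I and rDNA transcription, 10 were lower at day 4 (66.7%, against 21.3% of all genes) and 11 at day 6 (73.3%, against 29.4%), with medians of −0.62 and −0.59. Ubtf, which binds the rDNA promoter, and Taf1b, a subunit of the selectivity factor, had log2 fold changes of −0.94 and −0.96 at day 6. Of 58 ribosome biogenesis genes, 5, 27 and 32 were lower at days 2, 4 and 6 and none was higher. These are 8.62%, 46.6% and 55.2% of the list, against 6.21%, 21.3% and 29.4% of all genes, so the share at day 2 was near that of all genes. Rrp15, which acts in large subunit maturation, was lower on all 3 days, with −1.27, −1.44 and −1.27, and Dkc1, the pseudouridine synthase of box H/ACA particles, had −1.17 at day 6.

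Of 34 translation factors, 16 were lower at day 6 (47.1%, against 29.4% of all genes), with a median of −0.33 against −0.14 over all genes. At day 4 the share was 23.5%, near the 21.3% of all genes. At day 6, Eif2s2, a subunit of the initiator tRNA carrier eIF2, had the largest fall (−1.16). Among 15 genes of mTORC1 and TOP mRNA control, 6 were lower (40%, against 29.4% of all genes) and 1, the stress-induced mTORC1 inhibitor Ddit4, was higher at day 6 (0.44, adjusted p = 0.0465). The median of that list was −0.18, near the −0.14 of all genes. Akt1s1, which encodes the mTORC1 inhibitor PRAS40, was lower on each day, with log2 fold changes of −1.54, −1.62 and −1.17. The mRNA-binding protein gene Larp1, which acts on TOP mRNAs, was not called (−0.18, adjusted p = 0.425).

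The mitochondrial ribosomal proteins, which build the ribosome of the mitochondrion, were described in the same way. Of 75 genes, 15, 42 and 49 were lower at days 2, 4 and 6, and 0, 1 and 1 were higher. The lower calls are 20%, 56% and 65.3% of the list, against 6.21%, 21.3% and 29.4% of all genes, of which 6.22%, 20.9% and 21% were higher. Their median log2 fold changes were −0.17, −0.44 and −0.58, against −0.09, −0.22 and −0.54 for the cytosolic genes. From day 4 to day 6, the median over genes of the change in log2 fold change was −0.06 for the mitochondrial genes and −0.30 for the cytosolic genes. The difference between the lists was not tested, and the mitochondrial genes were read with the 75th percentile scaling only. With quantile normalization, the median of the cytosolic genes was −0.06 at day 4 and −0.17 at day 6. Mrps27, a small subunit protein of that ribosome, had log2 fold changes of −1.34, −2.24 and −2.09.

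**Figure D5:**
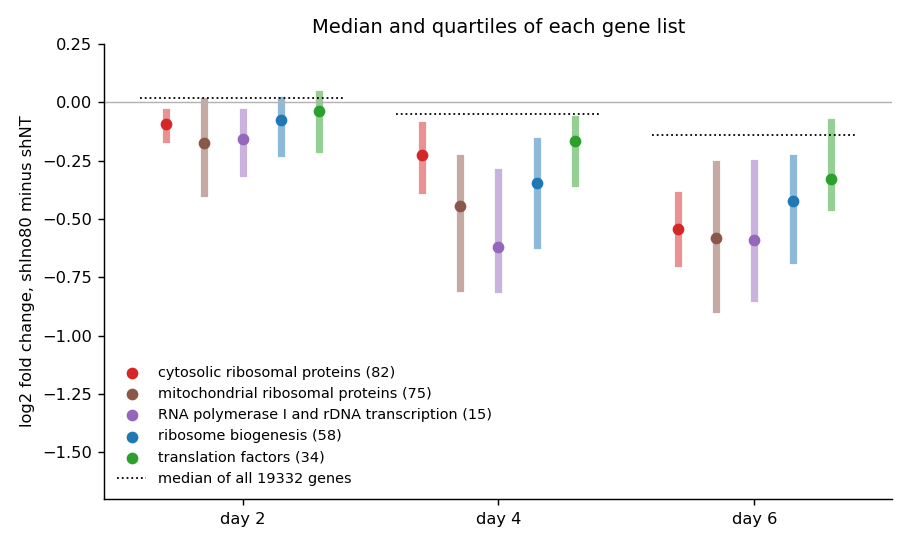
Median (points) and quartiles (bars) of the log2 fold change (shIno80 minus shNT, vertical axis) at days 2, 4 and 6 for the cytosolic ribosomal proteins and 4 other lists, with the number of genes tested in the legend. Dotted lines are medians of all 19332 genes. The cytosolic list is the highest of the ribosomal and rDNA lists at day 4 and lies beside them at day 6.

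The promoter motifs were set beside the changes at day 6. The 52 genes with a pyrimidine run of at least 8 bases near the start had a median log2 fold change of −0.57 at day 6, and the 10 without one had −0.50. The 25 genes with CCGGAAG had −0.52, and the 37 without it −0.57. The 6 genes with AAGATGGC had −0.68 and the 56 without it −0.53, and their ranges overlapped. These medians are descriptions of the family and were not tested.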

How the data were processed

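Total RNA of J1 cells was measured on 12 single-colour arrays. The deposited intensity values come from Agilent Feature Extraction 9.5.3.1, per the file headers, which background-subtracted and detrended each array without scaling between arrays. Cy5 is the dye in the labels, whereas the scanner columns are green. Columns of the deposited value table, in log2, each matched 1 scanner file within a relative tolerance of 1e-06. It ties 6 of 12 arrays to other samples than the file attachments do, and its assignment was used.

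Here, log2 intensity was set relative to the 75th percentile of non-control probes. Outlier spots were left out (125 of 41174 probes dropped), spots of a probe were averaged, and a probe was kept where 1 group or more had it well above background on each array (28642 probes). The brightest kept probe stood for a gene. A model with 6 group means was fitted with limma 3.58.1 in R 4.3.3 (6 residual and 2.19 prior degrees of freedom), with Benjamini-Hochberg adjustment over 19332 genes and a threshold of 0.05. The script was tested on simulated data. The number of arrays limits the precision.

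The members, lists and named genes were chosen with earlier results of these data known. Named were Ino80, paralogue pairs, stalk genes and Rpsa, on each day the 5 called members with the largest rise and fall without overlap, 3 genes per list, and members with a filtered or opposing probe. Other genes named were chosen after their values were seen. Lists were described by counts and medians. Rpl10l and Rps4y2 were not analysed here. Alternatives covered scaling, background, filters, probes, names, the spread, the replicate number, single arrays and the array assignment. Promoters came from RefSeq (GRCm38.p6). Some genes are counted in the totals and not reported by name here.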

Additional observations from a re-analysis of the deposited data

Results flagged for a closer look

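For 21 gene and day pairs given here, the difference between shIno80 and shNT itself differed between days by the test of that difference (limma, adjusted over all genes, threshold 0.05). All values are on the log2 scale, the later day minus the earlier, and all were negative. From day 2 to day 4 these were Rpl39l (−2.68), Rpl7l1 (−1.14) and Rpl3 (−0.49). From day 4 to day 6 they were Rpl3l (−1.79) and Rpl39l (−1.40). The Rpl3l values, here and from day 2 to day 6, rest on a day 6 change that depended on the processing. That change shrank to −0.38 under normexp and to −0.46 in the value table.

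From day 2 to day 6, the paralogues Rpl39l (−4.07), Rpl3l (−1.67) and Rpl7l1 (−1.08) had the largest values. Among large subunit genes, the values were −0.81 for Rpl10a, −0.81 for Rpl3, −0.75 for Rpl17, −0.75 for Rpl13a, −0.66 for Rpl37, −0.62 for Rpl28, −0.60 for Rpl22, −0.58 for Rpl36, −0.53 for Rpl26 and −0.49 for Rpl6. Among small subunit genes, they were −0.68 for Rps9, −0.57 for Rps10 and −0.52 for Rps3a. No stalk gene was among them. Each day lay on a slide of its own. From day 2 to 4, day 4 to 6 and day 2 to 6, 3.66%, 2.44% and 23.2% of the family were called lower in this test. Of all genes, 7.09%, 2.24% and 15.7% were. The calls from day 2 to day 6 depended on the processing, with 19 of 82 genes by the 75th percentile, 9 with median scaling and 8 with the value table.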

How the results depend on the processing

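The median log2 fold change of the ribosomal protein genes at day 4 was −0.37 with median scaling, −0.0614 with quantile normalization and −0.0742 with normexp and quantile normalization, and at day 6 it was −0.17, −0.15 and −0.30 with quantile normalization, normexp and the value table and −0.21 without scaling. The count of lower genes was 34 at day 4 with median scaling, and at day 6 it was 31, 37 and 38 with quantile normalization, normexp and the value table. Without scaling, 1, 13 and 18 genes were lower at days 2, 4 and 6, and 0 and 3 for day 6 against day 4 and day 2. For day 6 against day 2, 9 genes were lower with median scaling, 8 with the value table, 10 without a filter on dim probes and 30 with an intensity trend. There, 1 gene was higher with either quantile setting. Counted by probe, 35 of the 134 kept probes were lower for day 6 against day 2. For day 6 against day 4, 1 gene was lower with normexp, the value table, no filter, or the mean of the probes, and for day 4 against day 2, 1 gene was higher with normexp and 5 were lower with the mean of the probes. Of these 134 probes, several of which can belong to 1 gene, 6 were lower at day 2, and 42 were lower and 2 higher at day 4. For day 4 against day 2, 8 of the 134 probes were lower. With the day's slide alone, 0 genes were lower at day 2, and without a filter 1 was. Counts for 1 day against another refer to the difference between shIno80 and shNT. The share of all genes is not given here for these counts under the alternatives. Nor is it given for the settings on filters, probes, the intensity trend and the slide, so such counts cannot be read as results about the family. Of the 82 genes, 63 lay below 0 at day 6 with quantile normalization and 65 with normexp. Among called genes named by rule, signs at day 6 turned for Rps27 (0.00772), Rps27l (0.0561) and Rpsa (0.0682) with quantile normalization and for Rps27l (0.0819) and Rpsa (0.0593) with normexp.

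Where arrays were assigned by the scanner file attachments, 0 genes were lower in any comparison, the medians were 0.22, 0.0144 and −0.0391 at days 2, 4 and 6, and signs turned for Rps27l at day 2 (0.23), Rpl22 (0.00142), Rpl27a (0.12) and Rpl36al (0.0084) at day 4, and Rpl3 (0.0353), Rpl3l (0.0738), Rpl7l1 (0.049) and Rps27 (0.0229) at day 6. Here each group holds arrays of both hairpins by the value table. The causes of the other changes were not tested.

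When single arrays were left out, the counts of lower genes ranged from 0 to 3 at day 2, 7 to 28 at day 4, 37 to 71 at day 6, 2 to 4 for day 4 against day 2, 0 to 2 for day 6 against day 4 and 9 to 31 for day 6 against day 2, and 0 genes were higher throughout. The medians ranged from −0.21 to 0.0245, −0.27 to −0.17 and −0.59 to −0.50 at days 2, 4 and 6. An arm left with 1 array was assumed to vary like the others.

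The replicate numbers were not taken to pair the samples. The differences between replicates 1 and 2 correlated between hairpins at 0.293, 0.118 and 0.0836 at days 2, 4 and 6. These values are above 0 on each day, and whether arrays of the same replicate number share an effect was not tested. With the replicate block, 37 genes were lower and 1 higher at day 4, and 1 was higher at day 2 (Rpl3l on both days). For day 6 against day 2, 44 were lower with it. The share of all genes called with the block is not given here, so these counts cannot be read as results about the family. All members were well above background on all arrays, but this does not free the counts from the handling of background. The log2 fold change of the dim member Rpl3l at day 6 was −1.21 after quantile normalization. It was −0.38 with normexp before that step and −0.46 in the value table.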
